A study of Mus musculus with 4 samples.

Results

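Of the 6 genes chosen for the polyol pathway and the aldo-keto reductases around it (Sord, Akr1b3, Akr1b7, Akr1b8, Akr1a1 and Khk), 3 were measured: Akr1a1, Akr1b8 and Khk. They were found by gene symbol in the platform's annotation and are 3 of 8251 genes named there, each with 1 probe set of 12422. No probe set named for Sord, Akr1b3 or Akr1b7 was among them, so these genes are not analysed here. The measured genes therefore hold neither enzyme of the polyol pathway proper, and the data below describe its neighbours: related reductases and the kinase that uses fructose. The tissue was the whole seminal vesicle of 4 mice of 15 months, C57Bl/6J by strain and wild type (+/+) for the homeobox gene Nkx3.1, with 1 Affymetrix Mu74AV2 array of biotin-labelled RNA per mouse. All belonged to 1 group without treatment, so the only comparison is between individual mice. The labels name a separate animal for each array and do not say whether the mice shared a litter. Whole glands were used, so fewer cells of a type and less RNA per cell cannot be told apart.

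The seminal vesicle supplies much of the volume of semen and, with it, fructose as a fuel for sperm. The gland makes fructose from glucose in the polyol pathway: aldose reductase (Akr1b3 in the mouse) reduces glucose to sorbitol with NADPH, and sorbitol dehydrogenase (Sord) oxidises sorbitol to fructose with NAD+. Akr1a1 encodes aldehyde reductase, which reduces a broad range of aldehydes and, in the mouse, turns glucuronate into gulonate on the way to ascorbate. Akr1b8 encodes a growth factor-inducible relative of aldose reductase that favours other aldehydes, and Akr1b7 a relative abundant in the vas deferens. Khk encodes ketohexokinase, which phosphorylates fructose and commits it to breakdown, mainly in liver, kidney and intestine.

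In the RefSeq annotation of GRCm38.p6, Akr1b8 lies in a row of related genes, with Akr1b3 on one side and Akr1b10 and then Akr1b7 on the other, and none of these neighbours had a named probe set. Akr1a1 and Khk lie on other chromosomes. The promoters of the 2 measured reductase genes are shown because 1 of them was above the background range given below and the other was not. Each is the 250 bases before the RefSeq start, 5′ to 3′ on the gene's strand, with capitals marking matches to 6 motifs on either strand: the GC box (GGGCGG), the CCAAT box, the TATA box (TATAAA), the antioxidant response element core (TGACNNNGC), an androgen receptor half-site (AGAACA) and an E-box (CACGTG).
Akr1a1, chr4:116651675-116651924, minus strand: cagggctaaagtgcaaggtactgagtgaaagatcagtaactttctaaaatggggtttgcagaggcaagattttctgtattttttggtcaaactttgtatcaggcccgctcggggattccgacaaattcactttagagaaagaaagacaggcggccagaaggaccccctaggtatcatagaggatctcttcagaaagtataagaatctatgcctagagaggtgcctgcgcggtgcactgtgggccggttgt
Akr1b8, chr6:34353896-34354145, plus strand: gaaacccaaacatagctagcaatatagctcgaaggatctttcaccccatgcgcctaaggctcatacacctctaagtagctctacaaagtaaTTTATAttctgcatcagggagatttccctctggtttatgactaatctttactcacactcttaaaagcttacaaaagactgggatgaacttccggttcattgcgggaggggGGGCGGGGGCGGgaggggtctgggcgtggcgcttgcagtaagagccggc
The Akr1a1 window held 0 matches. The Akr1b8 window held 2 GC boxes whose first bases lay 49 and 43 bases before the start, overlapping no other motif searched, and 1 TATA box match on the opposite strand 159 bases before it. For Khk, 123 bases of the tabulated window lay inside the annotated gene, so it is not shown. Among 32851 promoter windows of the same length, 32.7% held a GC box, 33.8% a CCAAT box, 12.4% a TATA box, 10.2% the antioxidant core, 16.1% the androgen half-site and 6.02% the E-box. The windows held 7 CpG dinucleotides for Akr1a1 and 9 for Akr1b8, against a median of 6 over all windows. The matches are letters in a window and say nothing of binding in this tissue.

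The first question was which of these genes gave signal above background. Values are expression levels on the log2 scale, and because probe sets bind with different strength they were set against a background range and not against each other. The limit of that range was set on each array by 108 genes of other organs, such as liver, retina or brain, as the 90th percentile of their 133 probe sets, and lay between 6.06 and 6.21. Akr1a1 was above the limit on every array, and Akr1b8 and Khk were above it on none. That is 1 of 3 probe sets, where 23.7% of all probe sets passed.

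Akr1a1, the aldehyde reductase, had values of 9.26, 9.37, 9.16 and 9.21 in mice 1 to 4. Its mean was 9.25 ± 0.09 (SD, n = 4 mice), and it exceeded the limit by 2.99 to 3.30 log2 units. All of the other-organ probe sets (100%) were below it on each array. Signal for this gene was thus present in all 4 glands, with little between the highest and the lowest.

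Akr1b8, the aldose reductase relative, had 5.73, 5.56, 5.50 and 5.36 in mice 1 to 4, with a mean of 5.54 ± 0.15 (SD, n = 4). It was below the limit by 0.38 in the nearest mouse and by 0.85 in the furthest. It stood in the upper part of the background range, above 77.4% to 84.2% of the other-organ probe sets, and above the median of all probe sets on each array (4.95 to 4.98). With the limit at the 75th percentile, 4.93 to 5.17, it passed on all 4 arrays, so the choice of limit decides whether it counts as giving signal. As the probe set is named for 1 gene of a family with close copies, a share of its signal could come from relatives, which was not tested.

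Khk, the ketohexokinase gene, had 2.67, 2.57, 2.55 and 2.42 in mice 1 to 4, with a mean of 2.55 ± 0.10 (SD, n = 4). Only 4.51% to 12% of the other-organ probe sets were below it. No Khk signal was detectable in any of the 4 mice, which on this array does not show that the gene was silent.

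**Figure D1:**
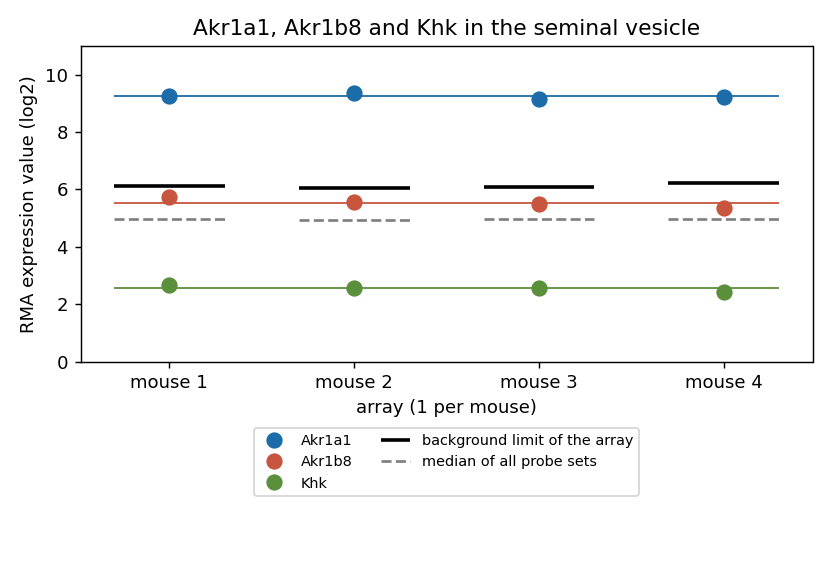
RMA expression value (log2) of Akr1a1, Akr1b8 and Khk on each array, with 1 point per mouse and a coloured line at the mean of 4 mice. Black bars mark each array's background limit (6.06 to 6.21) and dashed bars its median over all probe sets; Akr1a1 lies above the limit in all 4 mice, Akr1b8 between the dashed and the black bars, and Khk below both.

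The next question was whether the genes varied from mouse to mouse more than probe sets of like signal do. The SD of each probe set over the 4 mice was tested against the prior SD that limma's variance model gives for its signal, with Benjamini-Hochberg adjustment over 12422 probe sets at 0.05. By limma 0 of the 3 were called, and 0 were under 0.05 unadjusted, where 0.282% of all probe sets (35) were called. The median SD over all probe sets was 0.11.

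Akr1a1 had an SD of 0.09, below the prior SD of 0.13 (adjusted p = 0.995, limma), and 65.8% of all probe sets had a larger SD. Its highest mouse exceeded its lowest 1.16-fold, and without mouse 2 its SD was 0.05. Akr1b8 varied somewhat more, with an SD of 0.15 against a prior of 0.13 (adjusted p = 0.993, limma) and a highest mouse 1.29-fold above the lowest. Khk had an SD of 0.10 against a prior of 0.10 (adjusted p = 0.993, limma) and a highest mouse 1.19-fold above the lowest, and without mouse 4 its SD was 0.07. With 4 mice, an SD of 0.68 for Akr1a1, 0.67 for Akr1b8 and 0.52 for Khk would have been needed for a call, so smaller differences between the mice could not have been detected. RMA also draws dim values together, which limits the fold changes of Akr1b8 and Khk.

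**Figure D2:**
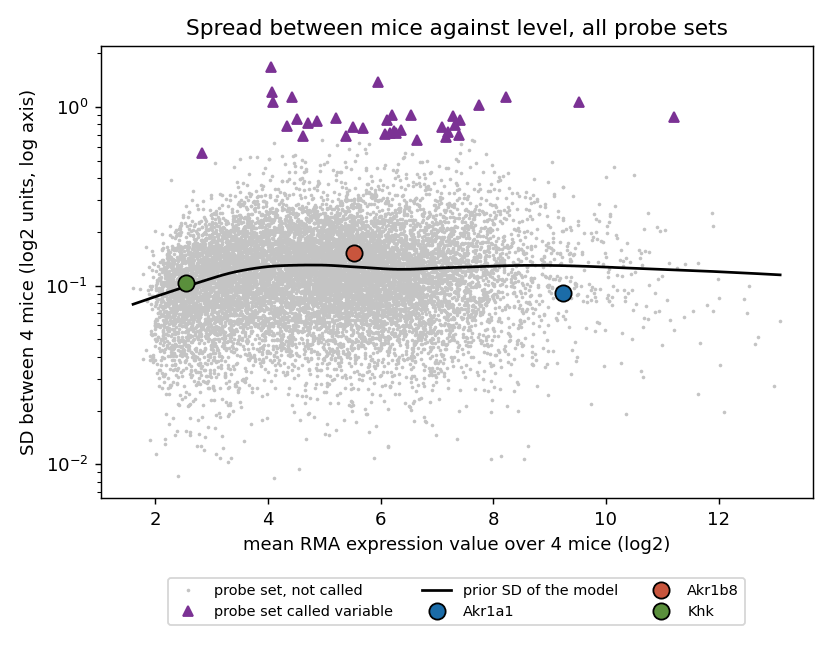
SD between 4 mice (log2 units, log axis) against the mean RMA expression value (log2), with 1 grey dot per probe set, triangles for the 35 called variable and a line at the model's prior SD. Akr1a1 (SD 0.09), Akr1b8 (0.15) and Khk (0.10) lie close to the line and well below the called probe sets, whose smallest SD was 0.55.

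The measured genes did not share one order of the mice. As deviations from its own mean, Akr1a1 had 0.01, 0.12, -0.09 and -0.04 in mice 1 to 4, so it was highest in mouse 2 and lowest in mouse 3, an order of extremes that 6.9% of all probe sets had. Akr1b8 had 0.19, 0.02, -0.04 and -0.18, and Khk had 0.12, 0.02, -0.0043 and -0.13. Each peaked in mouse 1 and was lowest in mouse 4, which held for 5.92% of all probe sets. The difference between Akr1b8 and Khk within an array had an SD of 0.05 over the mice, against 0.15 between Akr1b8 and Akr1a1 and 0.11 between Khk and Akr1a1. The mean deviation over the 3 genes was 0.11, 0.05, -0.04 and -0.12 in mice 1 to 4, an SD of 0.10.

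Marker genes of the gland's cell types are given beside these values, as means over a list of each gene's deviation from its own mean. By limma 0 of the 13 probe sets for luminal epithelium, 11 for secretion, 11 for smooth muscle and 15 for macrophages and dendritic cells were called, with 2, 0, 6 and 5 under 0.05 unadjusted, where 5.44% of all probe sets were. Luminal markers, 8 of 10 above the background range, had mean deviations of -0.05, 0.14, -0.11 and 0.01 in mice 1 to 4, and 5 of the 10 were highest in mouse 2. Secretion genes, 7 of 8 above, had -0.01, 0.09, -0.06 and -0.02, and 3 of the 8 were highest in mouse 2. Both means had their extremes in the same mice as Akr1a1, although many single genes of the lists did not. In mouse 2 the 108 other-organ genes that set the limit had a mean deviation of -0.08, and 55 of them were lowest there. Whether bright and dim probe sets differed in scale on that array was not tested, so the match is not particular to these lists. Smooth muscle markers, 9 of 10 above, had 0.32, -0.18, -0.03 and -0.11, and 9 of the 10 were highest in mouse 1. Lists of fibroblasts and matrix (0.10), adrenal cortex (0.10), basal epithelium (0.08) and vas deferens and epididymis (0.07) were also highest in mouse 1. Of these, basal epithelium had 1 of 5 genes above the range and vas deferens and epididymis 0 of 7. The androgen response mean was 0.34 in mouse 1, but only 1 of its 7 genes, Pbsn, was highest there. Macrophage and dendritic cell markers, 4 of 10 above, had -0.02, 0.06, 0.21 and -0.25, and 9 of the 10 were lowest in mouse 4. Akr1b8 and Khk were within the background range, so their order over the mice cannot be matched to that of any list. Sums of the log2 values, which depend on the probe sets listed, ran from 68.9 to 71.3 for luminal epithelium, 84.0 to 85.1 for secretion, 83.9 to 88.8 for smooth muscle and 60.9 to 65.5 for macrophages and dendritic cells. The part of these lists in the values of the 3 genes was not tested.

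**Figure D3:**
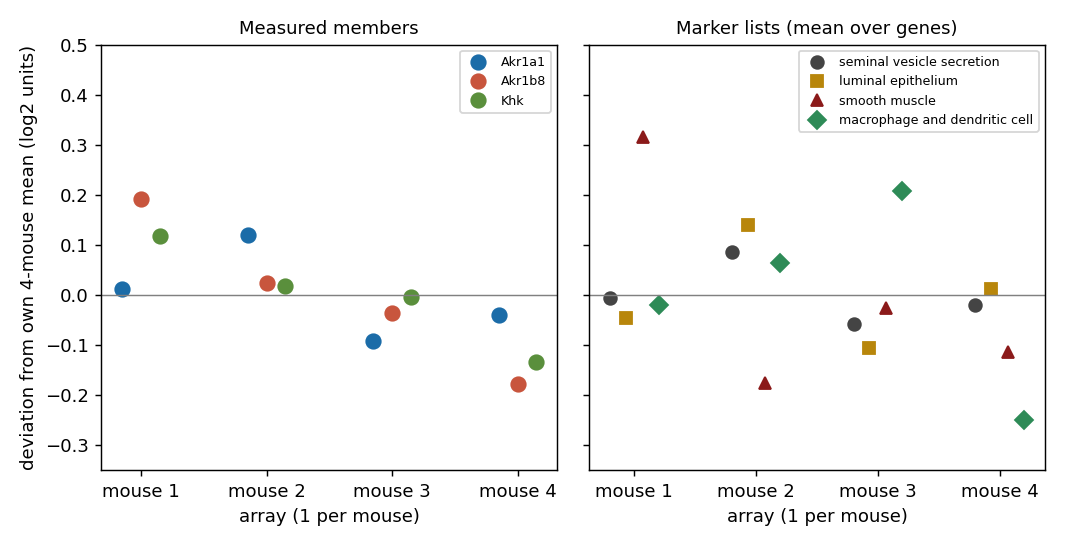
Deviation from the 4-mouse mean (log2 units) for each array, 1 point per mouse, for the 3 measured genes on the left and as means over the genes of 4 marker lists on the right. Akr1a1 is highest in mouse 2 (0.12), and Akr1b8 (0.19) and Khk (0.12) in mouse 1, while the smooth muscle mean spans a wider range, from -0.18 to 0.32.

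The probe sets whose deviations were most like those of Akr1a1 over the 4 arrays read Hint1, a nucleotide hydrolase gene, Lonp2, a peroxisomal protease gene, and Eef1a1, the translation elongation factor gene. Their root mean square differences from Akr1a1 were 0.0066, 0.0094 and 0.011 log2 units. With a spread this small many probe sets were alike, and 120 of 2616 single-gene probe sets above the background range lay within 0.05 of it.

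The other genes that carry glucose and fructose gave signal at some steps. Of 19 measured genes of hexose uptake and fructose use, 6 exceeded the limit, 31.6% against 28.9% of all genes of the array, and 0 were called variable by limma (2 of 30 probe sets under 0.05 unadjusted). Those above were Hk1, a hexokinase gene, at 9.36 ± 0.15 (SD, n = 4), Aldoa, the aldolase A gene, at 9.06 ± 0.08, Tpi1, the triosephosphate isomerase gene, at 8.23 ± 0.10, Pfkl, the liver-type phosphofructokinase gene, at 7.37 ± 0.09, Slc2a8, a glucose transporter gene, at 6.78 ± 0.11, and Galm, the galactose mutarotase gene, at 6.65 ± 0.10. The fructose transporter gene Slc2a5 was below the limit in every mouse, at 5.25, 5.31, 5.20 and 5.25, and so was the hexokinase gene Hk2, at 5.03, 5.11, 5.39 and 5.28. The glucose transporter gene Slc2a1, picked after its values were seen, had 5.90 in mouse 1 and 6.41, 6.28 and 6.31 in mice 2 to 4, the last 3 above the limit. Tkfc, the triokinase gene, is not analysed here.

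Other reductase genes, taken as 1 list, exceeded the limit about as often as the genes of the array. Of 13 other aldo-keto and carbonyl reductases 3 did, 23.1% against 28.9% of all genes: Akr7a5, an aflatoxin aldehyde reductase gene, at 7.49 ± 0.06 (SD, n = 4), Dhrs4, a retinal and carbonyl reductase gene, at 6.43 ± 0.08, and Cbr3, a carbonyl reductase gene, at 6.22 ± 0.07, the last by a narrow margin. These 3, of which only Akr7a5 is an aldo-keto reductase gene, were named after their values were seen. The steroid dehydrogenase relatives Akr1c6 (3.51 ± 0.06), Akr1c13 (5.37 ± 0.04) and Akr1c21 (3.03 ± 0.11) did not. None of the 15 probe sets of the list was called by limma, with 0 under 0.05 unadjusted.

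NADPH, the reducing agent of these enzymes, comes largely from the pentose phosphate pathway. In the list of NADPH supply and Nrf2 targets 9 of 16 measured genes exceeded the limit, 56.2% against 28.9% of all genes, among them Pgd, the phosphogluconate dehydrogenase gene, at 7.76 ± 0.07 (SD, n = 4), Tkt, the transketolase gene, at 7.11 ± 0.05, and Taldo1, the transaldolase gene, at 6.49 ± 0.11. The list joins genes of NADPH supply with Nrf2 targets, so its share is not a measure of NADPH supply. Me1 (3.90 ± 0.21) and Idh1 (5.47 ± 0.28) of the same list, named after their values were seen, were below the limit in every mouse. By limma 0 of 18 probe sets were called, with 3 under 0.05 unadjusted, where 5.44% of all probe sets were. For NADH, which the sorbitol step produces, 4 of 9 genes of reoxidation and lactate were above (44.4%, against the same 28.9%), with 0 of 12 probe sets called by limma and 2 under 0.05 unadjusted. Ldha, a lactate dehydrogenase gene, had 7.22, 6.96, 7.52 and 6.96 in mice 1 to 4 (adjusted p = 0.887, limma), and Gpd1, the cytosolic glycerol phosphate dehydrogenase gene, had 7.50, 7.69, 7.93 and 7.24 (adjusted p = 0.791, limma). Both were highest in mouse 3, where Akr1a1 was lowest, but none of these genes was called variable and a link was not tested. Ldhb was below the limit at 3.93 ± 0.07.

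Sorbitol is also an osmolyte, and aldose reductase belongs to the genes that the factor NFAT5 raises under osmotic stress. Of 7 measured genes of the osmolyte list 4 were above the range (57.1%, against 28.9% of all genes), with Slc6a6, the taurine transporter gene, at 8.13 ± 0.03 (SD, n = 4), while Slc6a12, the betaine transporter gene, was below at 4.16 ± 0.16. Slc38a2, an amino acid transporter gene, had 5.31, 6.06, 6.24 and 5.70 (adjusted p = 0.338, limma). In the list for ascorbate and glucuronate, 1 of 7 genes was above (14.3%, against 28.9%). It was Aldh2, an aldehyde dehydrogenase gene, at 6.75 ± 0.06, named after its values were seen. Ugdh (5.78 ± 0.14), Ugp2 (4.57 ± 0.08) and Rgn (2.61 ± 0.02), which act before or after Akr1a1 on the ascorbate route, were not above. Akr1b3 and Akr1b7 can make prostaglandin F. In a list of 7 prostaglandin genes around that step 2 were above, 28.6% and so close to the 28.9% of all genes. These were Hpgd, a prostaglandin dehydrogenase gene (7.03 ± 0.14), and Ptgds, the prostaglandin D synthase gene (8.28 ± 0.15). Neither is a prostaglandin F synthase gene, and both were named after their values were seen. Ptgs2 (2.42 ± 0.12), Pla2g4a (3.36 ± 0.20) and Cbr1 (5.34 ± 0.14) were not above. By limma 0 of the 12, 10 and 10 probe sets of these lists were called, with 1, 1 and 0 under 0.05 unadjusted.

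**Figure D4:**
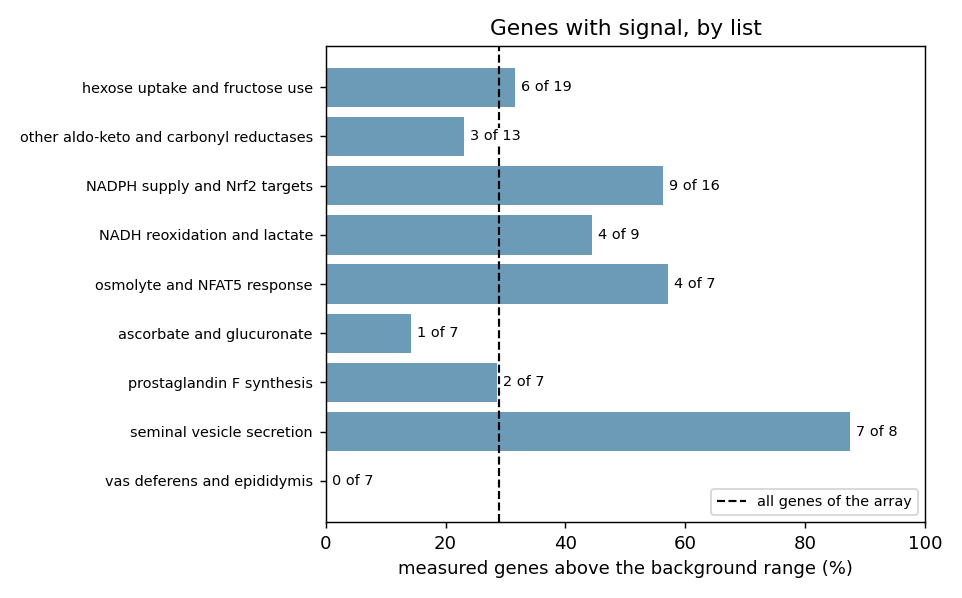
Percent of the measured genes of each list that exceeded the background limit in all 4 mice, with the counts beside the bars and a dashed line at 28.9%, the share of all genes. The hexose list (6 of 19) is near the line. The mixed list of NADPH supply and Nrf2 targets (9 of 16) and the secretion list (7 of 8) are above it. Of the vas deferens and epididymis genes 0 of 7 passed, and no test between lists was made.

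Of 8 measured genes of the gland's secretion 7 were above the limit (87.5%, against 28.9% of all genes). As the lists were chosen with earlier results of these data known, this is no independent check of the tissue label. Spink1, named after its values were seen, was the one below, at 3.69 ± 0.20. Svs2 (12.53 ± 0.10, SD, n = 4), Svs4 (12.99 ± 0.03) and Svs5 (13.09 ± 0.06), which encode proteins of the gland's secretion, were far above the limit. Of 7 vas deferens and epididymis genes 0 were above, among them Lcn5 at 3.12 ± 0.06, Gpx5 at 4.44 ± 0.05 and Adam7 at 4.31 ± 0.06. Genes of the adrenal cortex, a second site of Akr1b7, were above in 3 of 8 cases, 37.5% against 28.9% of all genes. They were Cyp21a1 (7.28 ± 0.15) and, named after their values were seen, Nr5a1 (8.46 ± 0.20) and Fdx1 (6.84 ± 0.11). Cyp11a1 (3.91 ± 0.15) and Star (3.81 ± 0.13) were not above. Of 7 androgen response genes 1 was above (14.3%), the chaperone gene Fkbp5 at 8.05 ± 0.09, while Odc1 was below at 5.74 ± 0.02. Pbsn, the probasin gene, was the only gene called variable by limma in these pathway lists, at 6.57 in mouse 1 against 3.02, 3.18 and 3.47 (adjusted p = 0.0015). It was above the limit in mouse 1 alone and was 1 of 9 probe sets of its list, so it does not speak for the list. The reason for its high value was not tested. Pearson's r between pairs of arrays, taken across probe sets that are not independent of one another, was 0.992 to 0.994. The beta-actin control probe sets at the 3′ end exceeded those at the 5′ end by 0.82 to 1.08, least in mouse 2. The same difference for the Gapdh control probe sets was -0.15 to -0.12.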

How the data were processed

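RNA from 4 seminal vesicles was hybridised to 1 array each. The authors deposited 1 log2 value for each probe set, computed by RMA according to the submitters' processing notes. The RMA version, like the set of arrays it ran on, is not given in the sources used here. The log2 scale was read from the values (1.47 to 13.2), which were used without further change. Precision is limited by the 4 arrays.

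Of 12488 probe sets, 66 Affymetrix controls were left out, which left 12422, of which 10833 read a single gene, 396 several and 1193 none that was named. Names came from the platform's annotation, and 10817 matched RefSeq (GRCm38.p6) by gene ID. Within lists the probe set with the highest mean stood for a gene, which counted as above the background range if any of its probe sets was.

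The mice were numbered in the order of the series. A call of variable required a variance (3 degrees of freedom) above limma's prior variance, fitted robustly with signal as trend (8.06 degrees of freedom), by an upper-tail F test with Benjamini-Hochberg adjustment. The test was checked on data simulated from the fitted model itself, which cannot show how well that model describes these arrays. P-values measure only the spread between these samples. The members and lists were chosen with earlier results of these data known. Named genes were all members; up to 12 hexose genes above the range and a fixed few, among them Slc2a5, Tkfc, Hk1 and Hk2; the first 3 measured of the other pathway lists and of the secretion, vas deferens and adrenal lists; called genes; and the 3 nearest in pattern to the above-range member of largest SD. Lists of basal epithelium (1 of 5 above the range), fibroblasts and matrix (5 of 10), endothelium (2 of 7) and adipocytes (1 of 5) were also counted. Alternatives covered scaling, background limits, prior fits, filters, probe set summaries and leaving out each mouse. R 4.3.3, limma 3.58.1, Python 3.11.15, pandas 2.3.3 and matplotlib 3.10.9 were used.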

Additional observations from a re-analysis of the deposited data

Results flagged for a closer look

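Of 44 probe sets named by the rule, 1 had a mouse far from the other 3. For Pbsn, the probasin gene, mouse 1 (6.57) stood apart from mice 2, 3 and 4 (3.02, 3.18 and 3.47), with a gap of 0.873 of the whole range against Dixon's critical value of 0.829 for 4 samples. Chance flags about 5% of such groups. None of Akr1a1, Akr1b8 and Khk was among those that stood apart.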

How the results depend on the processing

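With a background limit at the other-organ 75th percentile, or at each array's median, 2 of the 3 genes passed, Akr1b8 beside Akr1a1; under the other 8 alternatives 1 passed, among them the 95th percentile and leaving out each mouse. The count of variable genes was 0 under all 11 alternatives, which included prior fits without robustness or trend, filters on dim probe sets that left 1 or 2 of the 3 genes in the test, and each mouse left out. Adjusted p-values (limma) of Akr1a1, Akr1b8 and Khk stayed between 0.979 and 0.999 there. The SD of the mean deviation over the 3 genes ran from 0.0766 to 0.117 over 9 alternatives, both ends with a mouse left out. The mouse in which each of the 3 genes, and each of the 4 marker lists set beside them, was highest or lowest was unchanged by shifting the arrays to the same median or by quantile normalization. The size of the deviations did change. With quantile normalization Akr1a1 had 0.05 in mouse 1 and 0.06 in mouse 2, against 0.01 and 0.12 before it, so its peak in mouse 2 was nearly a tie. The secretion mean in mouse 2 was 0.04, against 0.09 before it. Over all probe sets the count of calls was 35, and 24 with arrays shifted to the same median, 15 with a non-robust fit, 25 without trend, 29 with quantile normalization, 31, 23, 44 and 17 without mice 1 to 4 in turn, 0 with probe sets above the mean limit alone (by limma), 1 above the median signal and 3 of genes by the mean of their probe sets. The cause of these changes was not tested. The count above the range moved from 2943 to 5497 with the 75th percentile, 5834 with each array's median and 1966 with the 95th. No paired analysis was possible because the series has 1 group.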
